A study of Homo sapiens with 40 samples.

Results

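The genes described here were 6 drug-metabolising enzymes of the cytochrome P450 family CYP2, namely CYP2A6, CYP2B6, CYP2C8, CYP2C19, CYP2D6 and CYP2E1. They were taken by gene name from 56568 gene names, and the FPKM values of the transcripts carrying each name were summed. FPKM counts fragments relative to transcript length and to the mapped fragments of the library, so levels of different genes can be set side by side. RNA was sequenced from HepaRG cells, an established human liver line whose differentiated cultures hold hepatocyte-like colonies among biliary-like epithelium. The 40 libraries fell into 8 groups of 5.

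All groups were kept from day 8 to day 14 in the same serum-containing test medium with DMSO, which the controls received without a test substance. PCB 126, a polychlorinated biphenyl with dioxin-like action through the aryl hydrocarbon receptor (AhR), was given at 100 pM, 10 nM or 1 µM. Glyphosate, the active herbicide, was given at 10 µg/L, 1 mg/L or 0.1 g/L, and the glyphosate-based formulation Roundup was given at 10 µg/L. The same 5 control libraries served the PCB 126 and the herbicide comparisons, so those comparisons were not independent of each other. HepaRG is a single line in mixed culture, and the labels did not state whether the 5 libraries of a group came from separate cultures. The p-values therefore measured only the spread between these libraries, which may be technical.

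CYP2 enzymes are haem mono-oxygenases of the endoplasmic reticulum that take electrons from P450 reductase and oxidise lipophilic compounds. CYP2B6 and the CYP2C enzymes are classical targets of the nuclear receptors CAR and PXR, which are activated by phenobarbital and rifampicin. Their basal expression in hepatocytes depends on liver-enriched factors such as HNF4A, whereas the AhR is best known for inducing the CYP1 family. In the GRCh38 coordinates of the files, CYP2A6 (chr19:40843538-40850447, minus strand) and CYP2B6 (chr19:40991299-41018398, plus strand) are neighbours on chromosome 19. CYP2C19 (chr10:94762624-94853260, plus strand) and CYP2C8 (chr10:95036772-95069497, minus strand) are part of the CYP2C cluster on chromosome 10. CYP2E1 (chr10:133520406-133561220, plus strand) lies elsewhere on that chromosome, and CYP2D6 (chr22:42126499-42130906, minus strand) lies on chromosome 22.

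The promoters of the 4 genes that entered the genome-wide test are shown because their transcripts differed in direction under PCB 126. Each is the 250 bases upstream of the RefSeq start on GRCh38.p14, read 5′ to 3′ on the gene's strand, at chr19:40991032-40991281 (CYP2B6), chr10:94762431-94762680 (CYP2C19), chr10:95069498-95069747 (CYP2C8) and chr10:133527113-133527362 (CYP2E1). Capitals mark TATAAA (the TATA box), AAAGTCC (the core of an HNF4 element), AGGTCA (a nuclear receptor half-site) and GCGTG (the core of a dioxin-responsive element), searched on both strands.
CYP2B6: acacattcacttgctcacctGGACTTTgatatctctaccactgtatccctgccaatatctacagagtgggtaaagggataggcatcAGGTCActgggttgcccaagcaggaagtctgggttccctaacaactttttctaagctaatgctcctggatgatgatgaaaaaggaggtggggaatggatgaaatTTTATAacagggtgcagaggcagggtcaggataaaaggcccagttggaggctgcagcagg
CYP2C19: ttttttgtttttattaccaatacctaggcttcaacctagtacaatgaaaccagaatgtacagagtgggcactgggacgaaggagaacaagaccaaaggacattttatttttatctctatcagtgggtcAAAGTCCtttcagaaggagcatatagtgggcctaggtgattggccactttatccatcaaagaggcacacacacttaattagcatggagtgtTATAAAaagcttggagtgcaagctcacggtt
CYP2C8: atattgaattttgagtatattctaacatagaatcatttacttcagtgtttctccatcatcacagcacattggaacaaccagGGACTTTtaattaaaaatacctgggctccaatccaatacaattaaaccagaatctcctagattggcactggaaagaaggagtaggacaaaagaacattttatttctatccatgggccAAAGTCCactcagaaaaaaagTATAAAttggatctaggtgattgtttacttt
CYP2E1: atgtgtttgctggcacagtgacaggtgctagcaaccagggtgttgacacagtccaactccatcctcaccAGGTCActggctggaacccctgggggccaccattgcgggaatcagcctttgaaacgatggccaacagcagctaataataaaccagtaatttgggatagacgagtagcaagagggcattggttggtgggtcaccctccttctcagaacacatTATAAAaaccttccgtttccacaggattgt
AAAGTCC occurred in CYP2B6, CYP2C19 and CYP2C8 but not in CYP2E1, and 3.2% of 35116 promoters of the same length held it. In CYP2C8 it lay at positions -52 to -46 and, on the opposite strand, at -169 to -163, counted back from the RefSeq start. AGGTCA was found in CYP2B6 and CYP2E1 and in 12.1% of all promoters. TATAAA lay at -31 to -26 in both CYP2C genes and at -30 to -25 in CYP2E1, while in CYP2B6 it appeared only on the opposite strand, and 10.7% of all promoters held it. GCGTG was found in none of these windows, against 32.2% of all promoters. The deposited CYP2C19 transcript began at position 94762624, inside the window shown. Only exact matches were marked, so near variants of a word, such as other forms of a TATA box, are not shown. Such matches describe letters and not bound sites. Promoter rows were matched for 5 of the 6 genes, CYP2D6 being the exception.

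Several members have close relatives, and reads could have been divided between them. Over the coding sequence, CYP2A6 was 96.4% identical to CYP2A7 and 95.2% to CYP2A13, and CYP2D6 was 93% identical to CYP2D7. The longest identical stretch was 178 bases for CYP2A6 and CYP2A7 and 172 for CYP2D6 and CYP2D7. CYP2C8 and CYP2C19 were more distant from each other, at 85% identity with a longest shared stretch of 91 bases. The levels of CYP2A6, CYP2B6 (which has the pseudogene copy CYP2B7P), CYP2C19 and CYP2D6 are uncertain to that extent.

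The first principal component of genes with an FPKM variance above 1 held 44.1% of the variance in the PCB 126 table and 44.6% in the herbicide table. In each table, 5 libraries stood apart on it, with a score above 30. They were control replicate 5, PCB 126 10 nM replicates 3 and 5, PCB 126 1 µM replicates 1 and 5, glyphosate 0.1 g/L replicate 2, glyphosate 10 µg/L replicate 5 and Roundup replicates 4 and 5. The main results are also given without them. The cut was on the positive side only, and libraries on the other side, down to -42.2 in control replicate 2, were kept. The removal was uneven over dose. It left 4 control libraries, all 5 at 100 pM and 3 each at 10 nM and 1 µM. Read depth was not recoverable from FPKM, and the read numbers that the authors report were not used. The precision therefore rests on the 5 libraries per group. Summed FPKM per library ranged from 255292 to 513059. It was 255292 to 332974 in the libraries that stood apart, and of the others only 10 nM replicate 2, at 311488, fell in that range. The sign of the component was set so that scores ran opposite to summed FPKM. What set these libraries apart was not tested. CYP1A1, the marker of AhR activation, averaged 2.33 FPKM (SD 3.4) in the controls and 235 (SD 108) at 1 µM, in the direction that the PCB 126 labels imply.

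All 6 genes were detected in all 40 libraries, and the control cultures expressed mainly CYP2C8 and CYP2E1. CYP2C8, which oxidises paclitaxel and arachidonic acid, averaged 31.3 ± 7.13 FPKM in the controls (SD, n = 5). CYP2E1, the ethanol-inducible enzyme that also activates paracetamol, averaged 20.9 ± 5.26. Together they made up 52.6% and 35.2% of the summed FPKM of the 6 genes, which was 59.4 ± 11.3. The other 4 were low. CYP2C19, which clears omeprazole and activates clopidogrel, averaged 3.7 ± 1.08 FPKM, and CYP2B6, which metabolises bupropion and efavirenz, averaged 1.85 ± 0.983. CYP2A6, the nicotine and coumarin hydroxylase, averaged 1.18 ± 0.424 and CYP2D6, which metabolises codeine and many antidepressants, 0.46 ± 0.249. In the control order CYP2C8, CYP2E1, CYP2C19, CYP2B6, CYP2A6, CYP2D6, the only neighbours whose library ranges did not overlap were CYP2E1 and CYP2C19. CYP2C8 nevertheless exceeded CYP2E1 within each of the 5 control libraries.

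**Figure D1:**
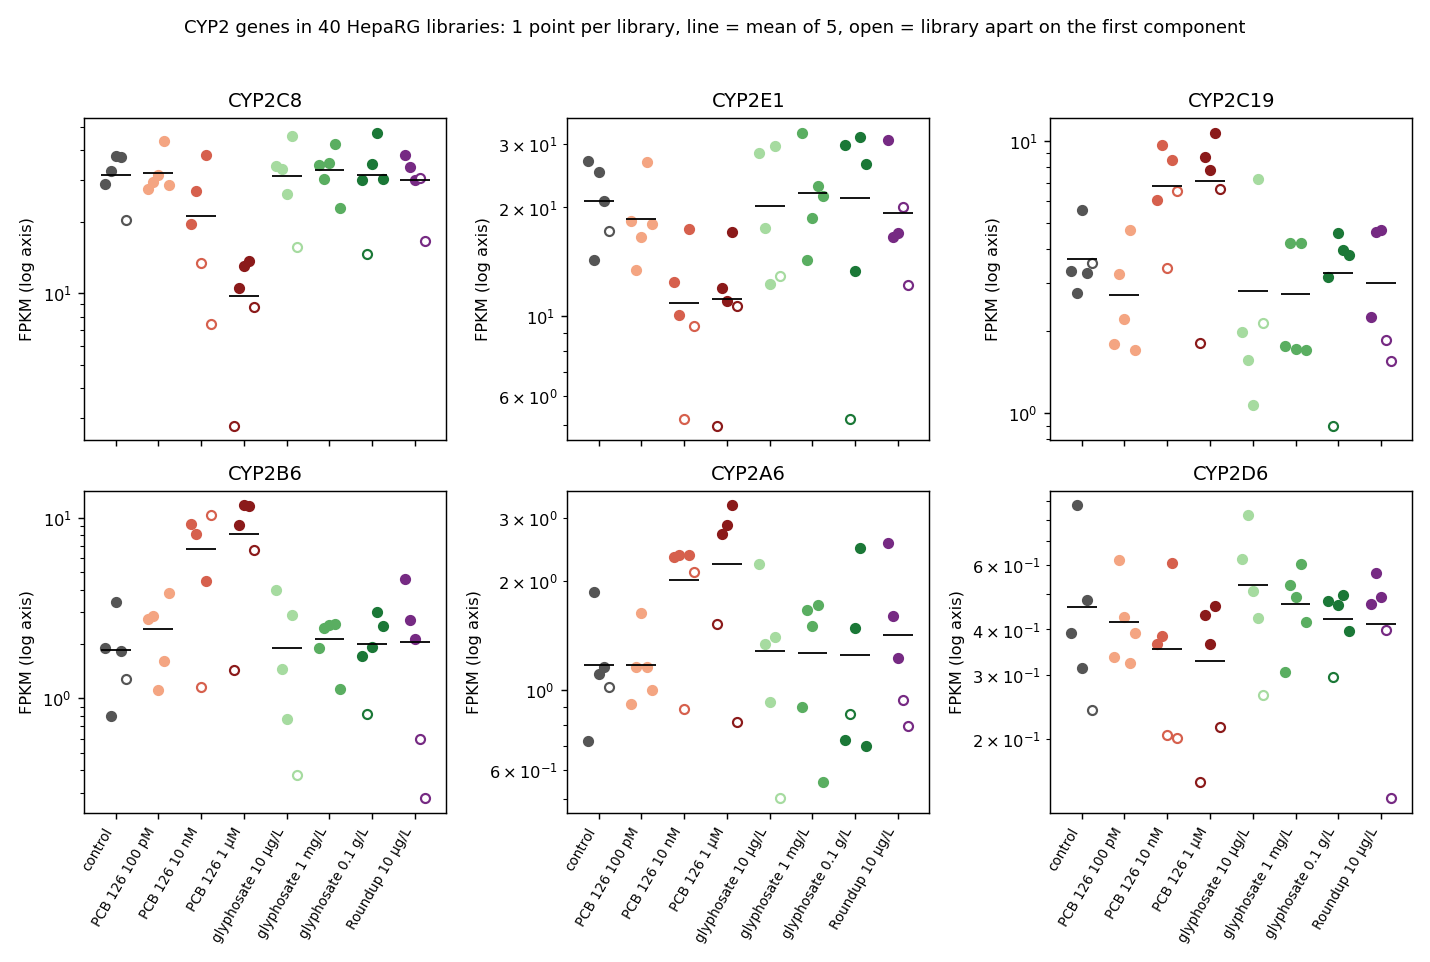
FPKM of each of the 6 CYP2 genes in every library (points, log axis) by treatment group, with the group mean as a line and libraries that stood apart drawn as open points. CYP2C8 at PCB 126 1 µM lies between 2.79 and 13.7 FPKM, below all 5 controls (20.3 to 37.5), whereas CYP2B6 reaches 11.7 FPKM against at most 3.41 in the controls.

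The PCB 126 comparison asked how a dioxin-like compound altered these enzymes over a 6-day exposure. At 1 µM, CYP2C8 fell from a control mean of 31.3 FPKM to 9.76 FPKM, and it was the only member to pass the genome-wide test. CYP2B6 and CYP2C19 were higher in 4 of 5 libraries than in any control, and CYP2E1 was lower in 4 of 5. CYP2A6 and CYP2D6 did not vary enough across libraries to enter the test, which kept genes with an FPKM variance of at least 1. Test values are log2 differences of FPKM + 1, which understate the change of genes with low FPKM. In bulk RNA, fewer cells of a type and less RNA per cell cannot be told apart.

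CYP2C8 stood at 28.7, 32.7, 37.5, 37.4 and 20.3 FPKM in control replicates 1 to 5. It stood at 27.4, 29.2, 31.5, 43.6 and 28.5 FPKM at 100 pM, and at 19.5, 26.9, 13.4, 37.9 and 7.47 FPKM at 10 nM. At 1 µM the values were 2.79, 10.5, 13, 13.7 and 8.77 FPKM. The 100 pM libraries overlapped the control range, the 10 nM libraries were spread from below to just above it, and all 1 µM libraries lay below it. The log2 difference at 1 µM was -1.70 (SE 0.36, 95% interval -2.45 to -0.95; limma, Benjamini-Hochberg adjusted p = 0.00937), and the group mean was 9.76 ± 4.37 FPKM. Of the 9755 genes tested, 1.87% passed at 1 µM in either direction and 1.22% as lower. Over all libraries, CYP2C8 was also the only one of the 6 whose 1 µM and control libraries did not overlap (exact permutation test, two-sided, p = 0.00794, the smallest that 5 against 5 allows), where 2.35% of genes did not overlap in either direction and 1.64% in the lower direction. Over all libraries no member separated from the controls at 100 pM or 10 nM, where 0.164% and 0.513% of genes did. Leaving out any 1 library kept the call, with log2 differences of -1.84 to -1.36. Without the libraries that stood apart it was -1.38 (limma, adjusted p = 0.00149) at 1 µM and -0.31 (limma, adjusted p = 0.898) at 10 nM. With all 43478 genes in the test, of which 0.398% passed, the adjusted p was 0.0716.

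CYP2B6 stood at 1.91, 0.802, 3.41, 1.84 and 1.28 FPKM in the controls and at 2.74, 2.87, 1.12, 1.6 and 3.83 FPKM at 100 pM. At 10 nM it stood at 9.17, 8.15, 1.15, 4.47 and 10.4 FPKM, and at 1 µM at 1.44, 9.07, 11.7, 11.6 and 6.58 FPKM. At both higher doses 4 of 5 libraries exceeded the highest control, and the remaining library, 10 nM replicate 3 or 1 µM replicate 1, was among those that stood apart and lay within the control range. The log2 difference was 1.28 at 10 nM (SE 0.43, limma adjusted p = 0.53) and 1.53 at 1 µM (SE 0.43, 95% interval 0.63 to 2.42, limma adjusted p = 0.0677), so neither passed. Of 20 fits that each left out 1 library, only those without 10 nM replicate 3 or 1 µM replicate 1 brought the 1 µM difference past the threshold. Without all libraries that stood apart it was 2.04 (limma, adjusted p = 0.00189), from means of 1.99 FPKM in 4 controls and 10.8 FPKM in 3 libraries. After scaling to the 75th percentile it was 1.63 (limma, adjusted p = 0.0184). The 1 µM difference did not pass with a pseudocount of 0.1 (limma, adjusted p = 0.123) or without the variance filter (0.272). Nor did it pass with replicate number as a block (limma, adjusted p = 0.0821) or with the most abundant transcript (0.372).

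CYP2C19 stood at 3.32, 2.77, 5.56, 3.27 and 3.56 FPKM in the controls and at 1.79, 3.23, 2.22, 4.69 and 1.7 FPKM at 100 pM. At 10 nM the values were 6.05, 9.62, 3.4, 8.49 and 6.53 FPKM, and at 1 µM they were 1.81, 8.74, 7.79, 10.7 and 6.68 FPKM. As with CYP2B6, 4 of 5 libraries exceeded the highest control at either dose, but 1 µM replicate 1 lay below the lowest control. The log2 difference was 0.70 at 10 nM (SE 0.33, limma adjusted p = 0.865) and 0.67 at 1 µM (SE 0.33, 95% interval -0.01 to 1.35, limma adjusted p = 0.373). Without the libraries that stood apart it was 1.11 at 1 µM (limma, adjusted p = 0.0226), from 3.73 FPKM in 4 controls and 9.06 FPKM in 3 libraries. The exact permutation test gave an unadjusted p of 0.0238 at 10 nM.

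CYP2E1 stood at 26.9, 14.3, 25.1, 20.9 and 17.2 FPKM in the controls and at 18.4, 13.4, 16.6, 26.7 and 18 FPKM at 100 pM. At 10 nM it stood at 12.4, 10.1, 5.17, 17.4 and 9.39 FPKM, and at 1 µM at 4.97, 12, 11, 17.1 and 10.7 FPKM. Replicate 4 was the highest library at both doses and the only one within the control range. The means were 10.9 ± 4.48 and 11.1 ± 4.31 FPKM, so the level at 10 nM was as low as that at 1 µM. The log2 differences were -0.93 at 10 nM (SE 0.30, limma adjusted p = 0.444) and -0.90 at 1 µM (SE 0.30, limma adjusted p = 0.145), and neither passed. Without the libraries that stood apart the 1 µM difference was -0.65 (limma, adjusted p = 0.175).

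CYP2A6 stood at 0.722, 1.87, 1.11, 1.16 and 1.02 FPKM in the controls, at 2.33, 2.36, 0.888, 2.37 and 2.13 FPKM at 10 nM and at 1.52, 2.71, 2.86, 3.25 and 0.817 FPKM at 1 µM. The 10 nM libraries other than replicate 3 were above the highest control, as were 3 of 5 at 1 µM. CYP2D6 stood at 0.39, 0.876, 0.313, 0.483 and 0.24 FPKM in the controls and at 0.153, 0.439, 0.364, 0.463 and 0.216 FPKM at 1 µM, with 3 of 5 libraries inside the control range. In a test without the variance filter the 1 µM log2 differences were 0.52 for CYP2A6 (95% interval 0.06 to 0.98, limma adjusted p = 0.489) and -0.13 for CYP2D6 (95% interval -0.35 to 0.10, limma adjusted p = 0.749). At 100 pM, CYP2A6 averaged 1.17 ± 0.278 FPKM and CYP2D6 0.421 ± 0.12 FPKM, close to their control means. Without the libraries that stood apart, CYP2A6 averaged 1.22 FPKM in the controls, 2.35 at 10 nM and 2.94 at 1 µM.

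Separation from the controls depended on the libraries that stood apart. Without them, with 4 control libraries and 3 at each of the 2 higher doses, 7 of the 42 comparisons of a member with its reference group did not overlap, in place of 1. At 10 nM these were CYP2A6 (2.33 to 2.37 FPKM against at most 1.87 in the controls), CYP2B6 (4.47 to 9.17 against at most 3.41) and CYP2C19 (6.05 to 9.62 against at most 5.56). At 1 µM they were the same 3 genes, at 2.71 to 3.25, 9.07 to 11.7 and 7.79 to 10.7 FPKM, and CYP2C8 at 10.5 to 13.7 against at least 28.7 FPKM. Among the 9755 genes, 6.76% did not overlap between these smaller groups at 10 nM and 18.5% at 1 µM. Of single libraries, leaving out 10 nM replicate 3 gave 4 comparisons without overlap and 1 µM replicate 1 gave 3, while control replicate 2, 10 nM replicate 4, 1 µM replicate 4 and 10 µg/L glyphosate replicate 4 each gave 2.

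**Figure D2:**
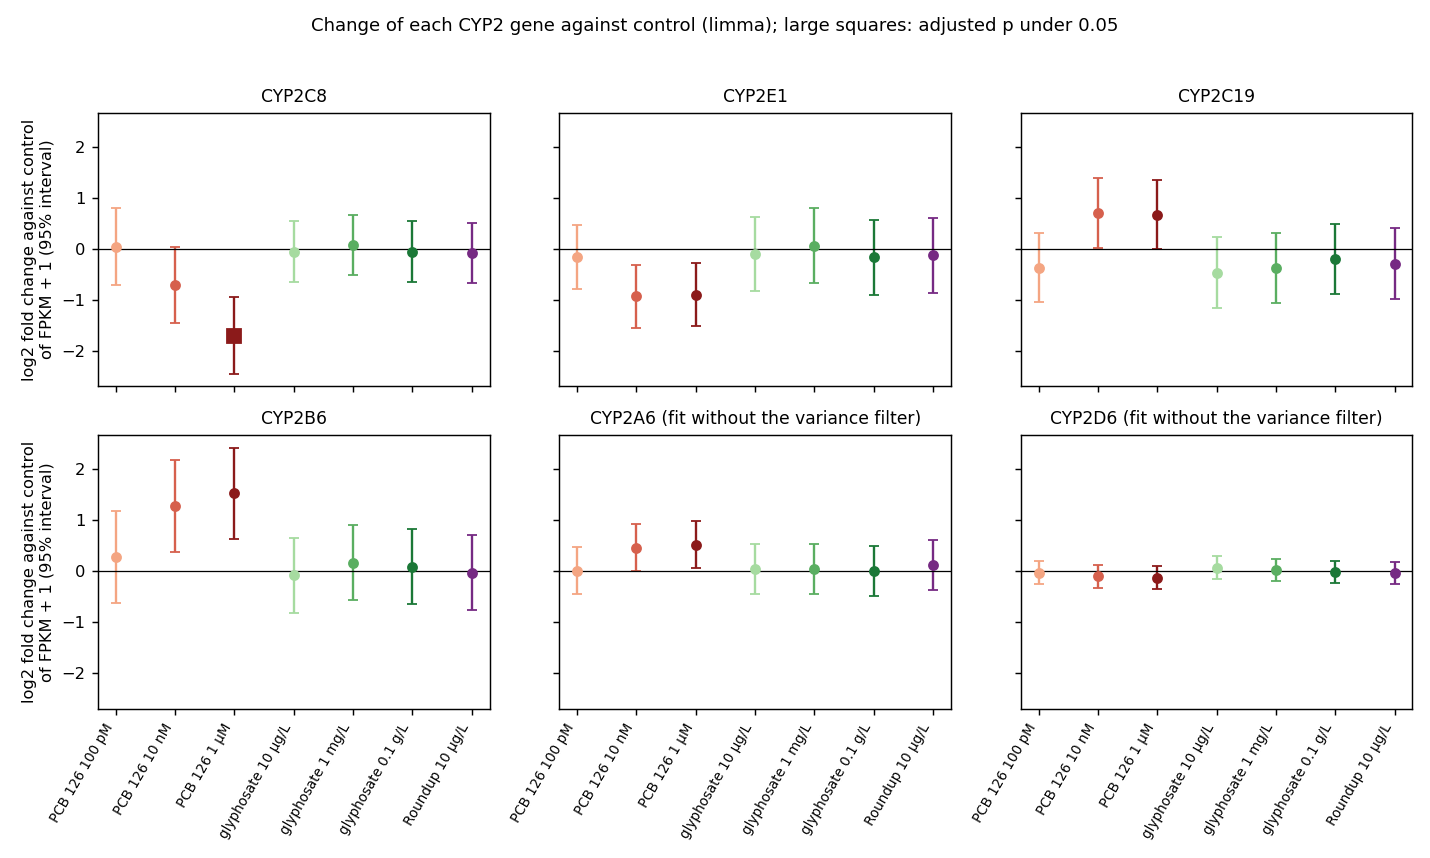
Log2 difference of FPKM + 1 from the control for each of the 6 CYP2 genes at each PCB 126 dose and each herbicide treatment, with 95% intervals. The PCB 126 intervals of CYP2C8 at 1 µM (-2.45 to -0.95) and CYP2B6 at 1 µM (0.63 to 2.42) lie on opposite sides of 0, while all herbicide intervals include 0.

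Along the dose series, with control, 100 pM, 10 nM and 1 µM taken as equal steps, CYP2B6 rose and CYP2C8 and CYP2E1 fell. The slope per step was 0.56 on the log2 scale for CYP2B6 (SE 0.14, limma adjusted p = 0.0202), -0.58 for CYP2C8 (SE 0.12, adjusted p = 0.00326) and -0.35 for CYP2E1 (SE 0.10, adjusted p = 0.0396). CYP2C19 had a slope of 0.31 (SE 0.10, limma adjusted p = 0.109). Of the 6 members 4 were tested and 3 passed, 1 higher and 2 lower, against 3.7% of the genes tested (0.882% higher and 2.82% lower). The filter kept genes that vary, so the 4 tested members are not a count over the family. With a pseudocount of 0.1 the CYP2E1 slope was -0.37 (limma, adjusted p = 0.0599), and in an ordinary model with library size it was -0.29 (adjusted p = 0.0687). The slope of CYP2B6 lost its call without control replicate 2 (limma, adjusted p = 0.0642), and that of CYP2E1 kept it in 9 of 20 fits that each left out 1 library. Without the variance filter the slopes of CYP2B6 and CYP2E1 did not pass (limma, adjusted p = 0.112 and 0.107). That of CYP2C8 did (limma, adjusted p = 0.0307), as did 362 of 43478 genes. Without the libraries that stood apart the CYP2E1 slope was -0.24 (limma, adjusted p = 0.0957), while that of CYP2C19 was 0.47 (limma, adjusted p = 0.00327). The CYP2C19 slope also passed after 75th-percentile scaling (0.35, limma adjusted p = 0.00786), after quantile normalisation (0.43, adjusted p = 0.000945), with array weights (0.42, adjusted p = 0.000535) and in the ordinary model (0.39, adjusted p = 0.0172). It did not pass with a pseudocount of 0.1 (limma, adjusted p = 0.145), without the variance filter (0.25) or with a filter on mean FPKM (0.105). Nor did it pass with replicate number as a block (limma, adjusted p = 0.0589) or with the most abundant transcript (0.315). With unnamed assembled transcripts added the CYP2C19 slope was 0.23 (limma, adjusted p = 0.27). Those transcripts extend past the end of CYP2C19, so that sum may not be CYP2C19 alone. Across the 4 groups at once, where 1.39% of genes passed, CYP2C8 alone was called (limma F test, adjusted p = 0.0179).

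At 100 pM, 0 of the 4 tested members passed by limma, at either adjusted or unadjusted p under 0.05. Of all 9755 genes, 0% passed after adjustment and 116 had an unadjusted p under 0.05. At 10 nM, 0 passed after adjustment, where 0.205% of genes passed. There 3 members had an unadjusted p under 0.05 (CYP2B6, CYP2C19 and CYP2E1), as did 473 of the 9755 genes tested. With libraries weighted by their quality in limma those 3 were called at 10 nM and all 4 at 1 µM. Over all 9755 genes that setting called 223 at 10 nM and 895 at 1 µM. Ordinary least squares with a library-size covariate called 0 at 10 nM and 2 at 1 µM, CYP2B6 and CYP2C8. Over all genes it called 46 and 498. That covariate was the sum of log2(FPKM + 1) over the detected genes below the 75th percentile of each library. Of 42 exact permutation tests over the 6 genes and 7 comparisons, 5 had an unadjusted p under 0.05 and 0 passed adjustment, the smallest adjusted p being 0.25.

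**Figure D3:**
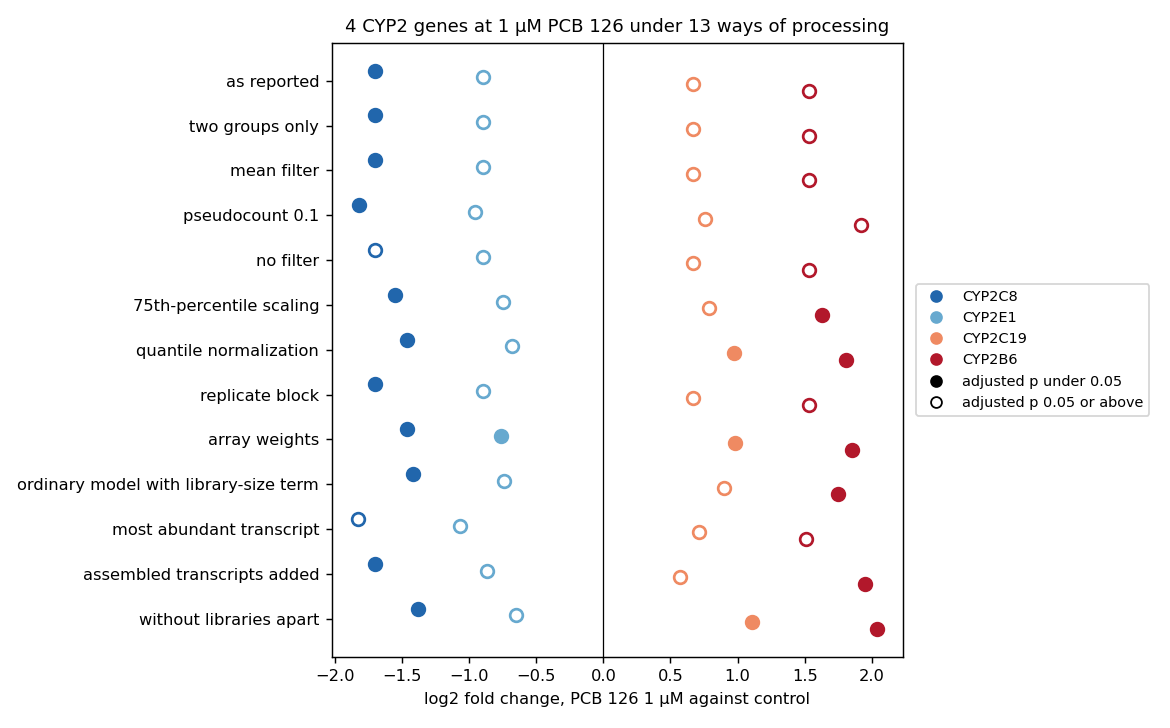
Log2 difference of FPKM + 1 at PCB 126 1 µM against control for the 4 tested genes under each way of processing the data, with filled points where the adjusted p was under 0.05. CYP2C8 lies between -1.83 and -1.38 and CYP2B6 is above 1 in all settings drawn, but which genes pass varies.

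The median difference of all tested genes at 1 µM was -0.26 on the log2 scale. Relative to it the members stood at 1.79 (CYP2B6), 0.93 (CYP2C19), -0.64 (CYP2E1) and -1.44 (CYP2C8). Over the tested members the median difference was -0.11. Scaling to the 75th percentile moved the median of all genes to -0.12 and quantile normalisation to -0.01, and the order and directions of the 4 genes stayed as they were. Of all genes tested, 63 were higher and 119 lower at 1 µM, against 532 and 553 after quantile normalisation.

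With opposite directions in CYP2C8 and CYP2B6, the makeup of the 6 transcripts shifted. The summed FPKM averaged 38.7 ± 16.7 at 1 µM, of which CYP2E1 made up 30.4%, CYP2C8 24.8%, CYP2B6 19.5%, CYP2C19 17.9%, CYP2A6 6.5% and CYP2D6 0.891%. CYP2E1 exceeded CYP2C8 in 4 of the 5 libraries, and in the order of levels only the ranges of CYP2A6 and CYP2D6 did not overlap. The ratio of CYP2C19 to CYP2C8 within a library, whose genes share the same cluster, ranged from 0.085 to 0.175 in the controls (median 0.116) and from 0.0596 to 0.111 at 100 pM (median 0.0706). It ranged from 0.224 to 0.874 at 10 nM (median 0.31) and from 0.597 to 0.829 at 1 µM (median 0.762). No library at the 2 higher doses reached down to the control range, the libraries that stood apart included. The ratio of CYP2B6 to CYP2C8 had a median of 0.063 in the controls (0.0246 to 0.091) and 0.852 at 1 µM (0.517 to 0.895). The ratio of CYP2E1 to CYP2C8 had a median of 0.67 in the controls (0.438 to 0.936) and 1.21 at 1 µM (0.843 to 1.78), with overlapping ranges. These ratios are given as a description, with no test, since the same values give the differences above.

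**Figure D4:**
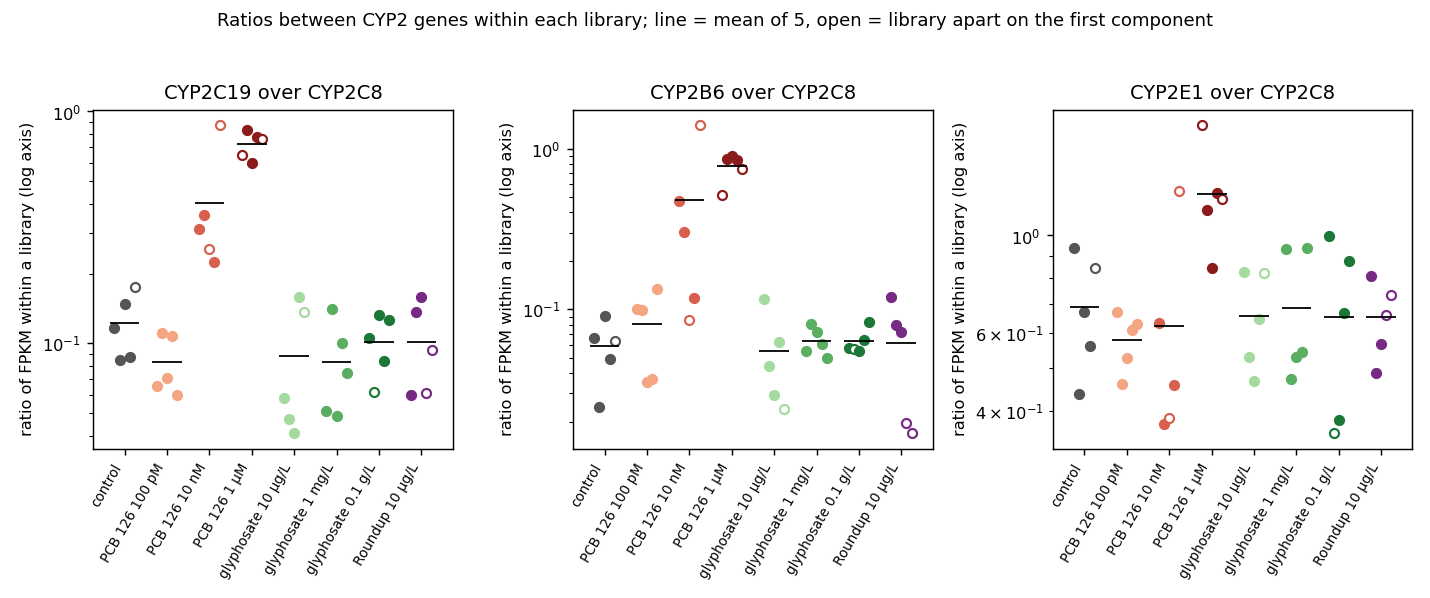
Ratios of CYP2C19, CYP2B6 and CYP2E1 to CYP2C8 within each library (points, log axis) by group, with the group mean as a line and libraries that stood apart as open points. The CYP2C19 ratio is 0.597 to 0.829 at PCB 126 1 µM and 0.0409 to 0.158 over the herbicide libraries, against 0.085 to 0.175 in the controls.

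The annotated transcripts carried these differences to unequal extents. ENST00000371270 held 71.4% of the CYP2C8 FPKM over all libraries and averaged 22.7 ± 6.93 FPKM in the controls and 7.5 ± 4.49 at 1 µM. In 1 µM replicate 1 it was listed at 0, and ENST00000539050, with 10 exons in place of 9, held 2.48 of the 2.79 FPKM there. Tested alone, ENST00000371270 had a log2 difference of -1.83 (limma, adjusted p = 0.228) and did not pass. ENST00000252945 held 96.6% of CYP2E1, ENST00000371321 90.4% of CYP2C19, ENST00000324071 86% of CYP2B6, ENST00000301141 69.4% of CYP2A6 and ENST00000360608 62.4% of CYP2D6.

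The assembly also contained transcripts without a gene name that overlap a member, 6 at CYP2C19, 3 at CYP2B6, 1 each at CYP2A6 and CYP2E1 and 0 at CYP2C8 and CYP2D6. One of those at CYP2B6, spanning chr19:40991099-41018590 in 6 exons, stood at 0.759, 0, 0, 0.0941 and 0.061 FPKM in the controls. It stood at 1.71, 1.38, 0.34, 1.34 and 0 FPKM at 10 nM and at 0.27, 4.67, 3.34, 5.83 and 3.38 FPKM at 1 µM. At the highest dose 4 of 5 libraries were above all controls, as for the named gene. Adding the unnamed transcripts to the CYP2B6 sum gave a 1 µM log2 difference of 1.95 (limma, adjusted p = 0.000847). Another of the transcripts added there, spanning chr19:40924098-41018590, begins well upstream of CYP2B6, so that sum may not be CYP2B6 alone. The same step gave a 1 µM log2 difference of 0.57 for CYP2C19 (limma, adjusted p = 0.491). The transcripts added there end between positions 94989432 and 94990038, past the CYP2C19 end at 94853260. That sum may therefore not be CYP2C19 alone. The transcript in 6 exons was singled out after its values were seen.

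**Figure D5:**
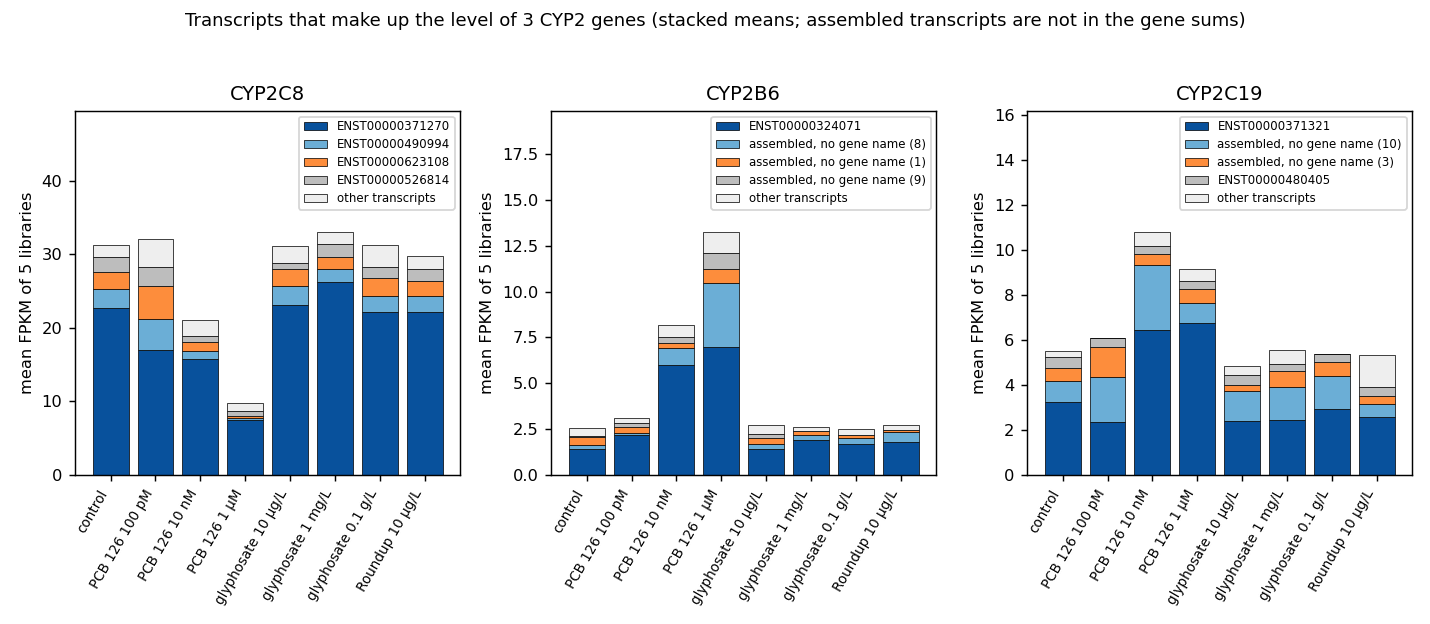
Mean FPKM of 5 libraries in each of the 8 groups, stacked by transcript, for CYP2C8, CYP2B6 and CYP2C19, with the unnamed assembled transcripts that are not part of the gene sums. Assembled transcript 8, the unnamed one described at CYP2B6, averages 0.183 FPKM in the controls and 3.5 FPKM at 1 µM, and ENST00000371270 of CYP2C8 22.7 and 7.5 FPKM.

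Among 13 other CYP2 genes, 4 entered the test at 1 µM and 0 passed by limma. At an unadjusted p under 0.05 there were 3, CYP2C18 and CYP2R1 among them, against 1322 of the 9755 genes tested. CYP2C18, a gene of the same cluster as CYP2C8, averaged 2.39 ± 1.13 FPKM in the controls and 0.618 ± 0.942 FPKM at 1 µM (log2 difference -1.17, limma adjusted p = 0.129). The pseudogene CYP2B7P, next to CYP2B6, averaged 0.685 ± 0.732 FPKM in the controls and 1.96 ± 1.49 at 1 µM, a log2 difference of 0.74 in the test without the filter (limma, adjusted p = 0.579). The other copies stayed low, CYP2A7 at 0.213 and 0.284 FPKM and CYP2D7 at 0.359 and 0.204 FPKM.

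P450 reductase (POR), which passes electrons to all of these enzymes, averaged 27 ± 5.8 FPKM in the controls and 21.5 ± 14.8 at 1 µM (limma, adjusted p = 0.492). Of POR, CYB5A and CYB5R3, 0 passed at 1 µM or at an unadjusted p under 0.05. Of 14 regulators 11 entered the test and 0 passed, with CEBPA (-0.70, limma adjusted p = 0.231) and DBP (-0.63, limma adjusted p = 0.362) under 0.05 before adjustment. HNF4A, the factor behind basal hepatocyte expression, averaged 19.5 ± 3.95 FPKM in the controls and 27 ± 9.77 at 1 µM (limma, adjusted p = 0.526). NR1I3, which encodes CAR, was at 0.4 ± 0.116 and 0.794 ± 0.279 FPKM, and NR1I2, which encodes PXR, at 1.39 ± 0.912 and 1.4 ± 0.815 FPKM.

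Of 6 AhR targets 5 entered the test, and CYP1A1, CYP1A2, CYP1B1 and TIPARP rose at both 10 nM and 1 µM, whereas AHRR did not pass. At 1 µM the log2 difference was 6.61 for CYP1A1 (limma, adjusted p = 7.44e-05) and 6.16 for CYP1A2 (limma, adjusted p = 2.29e-05). Among the CYP2 members the largest rise was 1.53 (CYP2B6) and the largest fall -1.70 (CYP2C8).

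Some hepatocyte and mesenchymal markers of the culture differed from the controls at 1 µM, but not all in the same direction. The tested biliary and cycling markers did not pass. The hepatocyte label held in the controls, where ALB averaged 11206 ± 1483 FPKM. The summed FPKM of 10 hepatocyte markers ranged from 16481 to 24744 in the controls and from 6465 to 16568 at 1 µM. TTR (-1.62, limma adjusted p = 0.00797) and FGB (-1.37, limma adjusted p = 0.0259) fell and TAT rose (1.48, limma adjusted p = 0.00497). ALB had a difference of -1.08 (limma, adjusted p = 0.0564). The 8 biliary markers summed to 279 to 534 FPKM in the controls and 164 to 284 at 1 µM, with 0 of 4 tested passing. KRT19 averaged 303 FPKM in the controls, while EPCAM was listed at 0 in 4 of 5 control libraries and in all 5 at 1 µM. The 8 mesenchymal markers summed to 41.1 to 92.5 and 51 to 190 FPKM, with COL3A1 lower (-3.07, limma adjusted p = 2.29e-05). LUM averaged 50.2 FPKM in the controls and 115 at 1 µM (1.03, limma adjusted p = 0.18), and DCN 4.95 and 10.7 (1.02, limma adjusted p = 0.0886). After 75th-percentile scaling LUM (1.19, limma adjusted p = 0.00714) and DCN (1.17, limma adjusted p = 0.00952) passed as higher, and COL3A1 (-2.96, limma adjusted p = 4.65e-05) and PDGFRB (-0.61, limma adjusted p = 0.0231) as lower. The 4 cycling markers summed to 25.1 to 62.1 and 13.2 to 33.2 FPKM, and 0 passed. The part of these shifts in the CYP2 differences was not tested.

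The herbicide comparisons asked whether glyphosate, or the formulation at the matched concentration, altered these genes. For the 6 CYP2 genes no difference from the control was detected in any of the 4 herbicide groups. CYP2C8 averaged 31 ± 11.1, 33 ± 7.1 and 31.3 ± 11.7 FPKM from the lowest to the highest glyphosate dose and 29.8 ± 8.03 FPKM with Roundup, against 31.3 ± 7.13 in the controls. CYP2E1 averaged 20.2 ± 8.33, 21.9 ± 6.63, 21.2 ± 11.4 and 19.3 ± 6.99 FPKM in the same groups. Both were at their control level to within the spread of the libraries.

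CYP2B6 averaged between 1.89 and 2.12 FPKM and CYP2C19 between 2.73 and 3.28 FPKM over the 4 herbicide groups. CYP2A6 averaged between 1.25 and 1.42 FPKM and CYP2D6 between 0.415 and 0.531 FPKM. The lowest CYP2E1 and CYP2C8 values of the glyphosate libraries, 5.18 and 14.6 FPKM, were both in 0.1 g/L replicate 2, which stood apart, as did the lowest CYP2B6 value of 0.281 FPKM in Roundup replicate 5. The largest log2 difference from the control of a tested member was -0.47 for CYP2C19 at 10 µg/L glyphosate (95% interval -1.16 to 0.22, limma adjusted p = 1), with 4 of its 5 libraries below the lowest control and replicate 4 at 7.27 FPKM.

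By limma 0 of the 4 tested members passed in any herbicide comparison and 0 had an unadjusted p under 0.05. After adjustment 0% of the 9533 genes tested passed. In 13 ways of processing the table the smallest adjusted p of a member was 0.246. In the exact permutation tests 0 member comparisons with the herbicides had a p under 0.05. No member's herbicide and control libraries separated, where 0.0524% of genes did at 10 µg/L glyphosate, 0.178% at 1 mg/L, 0.0839% at 0.1 g/L and 0.042% with Roundup.

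Roundup and glyphosate alone were set side by side at 10 µg/L for each of the 6 genes. The Roundup libraries stood at 37.9, 34, 29.8, 30.5 and 16.6 FPKM for CYP2C8 and the glyphosate libraries at 34.3, 33.2, 26.2, 45.9 and 15.7 FPKM. The Roundup libraries lay within the range of the glyphosate libraries, and each group had a low replicate 5 that stood apart. CYP2B6 stood at 4.55, 2.73, 2.14, 0.6 and 0.281 FPKM with Roundup and at 3.96, 1.46, 0.765, 2.89 and 0.375 FPKM with glyphosate. CYP2C19 stood at 2.26, 4.63, 4.71, 1.86 and 1.56 FPKM with Roundup and at 1.99, 1.57, 1.07, 7.27 and 2.14 FPKM with glyphosate. For both genes the libraries of a group spread more widely than the group means differed. The log2 difference of Roundup from glyphosate was -0.03 for CYP2C8 (95% interval -0.62 to 0.57), -0.03 for CYP2E1 (-0.76 to 0.70), 0.04 for CYP2B6 (-0.69 to 0.77) and 0.18 for CYP2C19 (-0.51 to 0.87). Without the filter it was 0.09 for CYP2A6 (-0.40 to 0.58) and -0.11 for CYP2D6 (-0.33 to 0.11). The smallest limma adjusted p of the 4 tested genes was 0.974. The intervals of all 4 tested genes extend past 0.5 on the log2 scale in either direction, so equal action was not shown. No member separated between these groups, where 0.105% of genes did.

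The genes most alike across all 40 libraries were taken by Pearson correlation of log2(FPKM + 1) among 12648 genes. The nearest to CYP2C8 were CA2 (0.959), SERPINA7 (0.959) and SERPINC1 (0.956), which encode carbonic anhydrase, thyroxine-binding globulin and antithrombin. The nearest to CYP2E1 were the alcohol dehydrogenases ADH4 (0.887), ADH1B (0.885) and ADH1A (0.871). The nearest to CYP2B6 were TMEM138 (0.898), CTH (0.887) and TSKU (0.884), and those to CYP2C19 were TRIM16L (0.777), CYP2B6 (0.745) and AC091563.1 (0.734). CYP2A6 was most like MLXIPL (0.773), PAK2 (0.762) and ITGA11 (0.754), and CYP2D6 most like ZNF195 (0.872), TIA1 (0.858) and AC139887.2 (0.857).

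Among the members themselves the strongest likeness was between CYP2C8 and CYP2E1 (0.759), followed by CYP2B6 and CYP2C19 (0.745) and CYP2A6 and CYP2B6 (0.71). CYP2C8 and CYP2C19, despite their shared cluster, had -0.079, and CYP2B6 and CYP2C8 had -0.203. These correlations describe 40 libraries that share treatment groups and the libraries that stood apart, and they carry no test.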

How the data were processed

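The 40 HepaRG libraries were sequenced by the authors as paired reads after ribosomal RNA depletion, with directional preparation. Reads were aligned with HISAT2 and assembled and quantified with StringTie on GRCh38, as the methods and the submitters' processing notes state. The deposited tables hold FPKM values per transcript from the authors. A few columns hold values below 0 (4 such values with PCB 126 and 6 with the herbicides), which the authors' files do not explain, so those deposited columns were recorded as a score and the values were set to 0. The 35782 of 234960 transcripts without a gene name were left out of gene sums.

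FPKM was summed per gene name and genes with a variance under 1 over the libraries of a table were left out. Values were analysed as log2(FPKM + 1) with limma 3.58.1 in R 4.3.3, using a linear model of the groups of a table without covariates, moderated tests and Benjamini-Hochberg adjustment over all genes of the table (9755 and 9533) at a threshold of 0.05. A trend over equal dose steps and an F test across groups were fitted likewise. Single values were compared by exact two-sided permutation of library labels. Tables and figures were made with Python 3.11.15, pandas 2.3.3, NumPy 2.4.6, Biopython 1.88 and Matplotlib 3.10.9. The scripts were tested on simulated data. Promoters came from RefSeq and coding sequences from GENCODE.

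The members and the lists of other genes were chosen with earlier results of these data known. The 6 members are named in every group. Genes of other lists are named if they passed a test, neighbour a member or carry the role the text describes, and the 3 genes most alike are named by Pearson correlation. Of regulators and electron donors, POR, HNF4A, NR1I2, NR1I3, CEBPA and DBP, and of markers and AhR targets ALB, KRT19, EPCAM, LUM, DCN, PDGFRB and AHRR, were named after their values were seen. Alternatives changed the pseudocount, filter, scaling, weights, model, samples and gene value. Values of 1 further gene of the lists are not reported here.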

Additional observations from a re-analysis of the deposited data

Results flagged for a closer look

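Within each group of 5 libraries, the gap between the highest or lowest library and its nearest neighbour was compared with the range of the group (Dixon's test at its 95% critical value). This was done for 48 combinations of gene and group, of which chance alone would flag about 1 in 20, and 4 were flagged. CYP2A6 at PCB 126 10 nM was lowest in replicate 3, at 0.888 FPKM against 2.13 in the nearest library, a gap of 0.837 of the range. This library was also among those that stood apart. CYP2C8 at 100 pM was highest in replicate 4, at 43.6 FPKM against 31.5 (0.749 of the range). CYP2C19 was highest in control replicate 3, at 5.56 FPKM against 3.56 (0.716), and in glyphosate 10 µg/L replicate 4, at 7.27 FPKM against 2.14 (0.827). The reasons for these values were not tested.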

How the results depend on the processing

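Over 12 alternatives and the fits that left out 1 library each, CYP2C8 kept its direction at PCB 126 1 µM, and CYP2B6, CYP2C19 and CYP2E1 kept theirs. The number of members called at 1 µM, 1 as reported, was 2 after 75th-percentile scaling, 3 after quantile normalisation, 4 with array weights (gene-by-gene method), 2 with an ordinary linear model including library size, and 0 both without the filter and with the most abundant transcript in place of the gene sum. The alternatives added after seeing the data gave 2 (unnamed assembled transcripts added) and 3 (without the libraries that stood apart). At 10 nM array weights gave 3 in place of 0. The F test across the PCB 126 groups, with 1 called as reported, gave 4 after 75th-percentile scaling, 4 with array weights, 3 after quantile normalisation, 2 with the ordinary model, 2 with assembled transcripts, 3 without the libraries that stood apart, and 0 without the filter, with a pseudocount of 0.1 or with the most abundant transcript. The trend, with 3 called (CYP2B6, CYP2C8 and CYP2E1), gave 4 after 75th-percentile scaling, quantile normalisation and with array weights, 3 (CYP2B6, CYP2C8 and CYP2C19) with the ordinary model and without the libraries that stood apart, 2 with a pseudocount of 0.1, 1 without the filter and 0 with the most abundant transcript. The comparisons with an exact p under 0.05, 5 as reported, numbered 8 after 75th-percentile scaling and 3 without the libraries that stood apart, where the smallest possible p was larger. Leaving out 1 library gave 1 to 2 members called at 1 µM, 0 to 3 in the F test, 2 to 3 in the trend and 4 to 7 exact comparisons. The larger number of genes tested was part of the setting without the filter, and the cause of the other changes was not tested.

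The replicate numbers were shared by all groups. They follow the order of the library titles, in which each run of consecutive titles held a library of every group. Same-numbered libraries deviated together by correlations of -0.06 to 0.17 in the PCB 126 table (7 of 30 pairs over 0.1) and -0.17 to 0.36 in the herbicide table (19 of 50 pairs). The medians were 0.063 and 0.069, against -0.018 and -0.019 for pairs with different numbers. Replicate 5 of the control, PCB 126 10 nM, PCB 126 1 µM, glyphosate 10 µg/L and Roundup groups was among the libraries that stood apart. The labels did not state what the numbers mark, so they were not taken as a pairing in the reported fit. With the replicate block the genes called went from 182 to 357 at 1 µM and from 20 to 37 at 10 nM, and the members called stayed at 1 (CYP2C8, limma adjusted p = 0.00285) and 0. Over all genes, calls at 1 µM were 592 after 75th-percentile scaling, 1085 after quantile normalisation, 895 with array weights, 498 with the ordinary model, 117 with the most abundant transcript and 526 without the libraries that stood apart. For the trend (361) those settings gave 906, 1257, 1213, 626, 192 and 570, and the block 607. For the F test (136) they gave 483, 714, 838, 325, 77 and 275, the block 270 and no filter 90. At 10 nM (20) they gave 69, 184, 223, 46, 13 and 56, and fitting the 2 groups alone gave 40. Array weights called 550 genes for Roundup, 817 for Roundup against glyphosate and 468 across the herbicide groups, where the reported fit called 0 and no member passed.

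Changes of sign concerned differences that did not pass in any fit. At 100 pM they were -0.03 (CYP2B6) and -0.07 (CYP2C8) with array weights, -0.53, -0.04 and -0.10 for CYP2C8 with the most abundant transcript, quantile normalisation and without the libraries that stood apart, and 0.08 for CYP2C19 with assembled transcripts. For Roundup against control they were 0.02 (CYP2B6), 0.12 (CYP2C8) and 0.06 (CYP2E1) after 75th-percentile scaling, 0.06, 0.12 and 0.07 after quantile normalisation, 0.14 (CYP2B6) and 0.08 (CYP2C8) with the ordinary model, 0.14 for CYP2B6 with the most abundant transcript, 0.01 (CYP2B6) and 0.10 (CYP2C19) with array weights, and 0.03 for CYP2C19 without the libraries that stood apart. For Roundup against glyphosate they were 0.09 for both CYP2C8 and CYP2E1 after 75th-percentile scaling, 0.13 for both after quantile normalisation, 0.12 and 0.07 with the ordinary model, and for CYP2B6 -0.13 with array weights and -0.05 with assembled transcripts. For glyphosate 0.1 g/L they were, for CYP2C8, 0.11, 0.03, 0.09 and 0.04 (75th-percentile scaling, array weights, ordinary model, without the libraries that stood apart), -0.04 for CYP2B6 with assembled transcripts, and 0.07 (CYP2C19) and 0.17 (CYP2E1) without the libraries that stood apart. For 1 mg/L they were -0.02, -0.06 and -0.06 for CYP2C8 (array weights, quantile normalisation, without those libraries), -0.05 and -0.09 for CYP2E1 (array weights, quantile normalisation) and 0.03 for CYP2C19 with assembled transcripts. For 10 µg/L they were 0.14 (CYP2B6), 0.11 (CYP2C8) and 0.07 (CYP2E1) with array weights, 0.02 and 0.01 for CYP2C8 (75th-percentile scaling, without those libraries) and 0.01 for CYP2B6 with assembled transcripts.

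Leaving out 1 library changed the sign within these ranges. CYP2C8 ranged from -0.10 to 0.11 at 100 pM, -0.22 to 0.16 at 10 µg/L glyphosate, -0.06 to 0.20 at 1 mg/L, -0.22 to 0.19 at 0.1 g/L, -0.23 to 0.10 for Roundup and -0.24 to 0.16 for Roundup against glyphosate. CYP2E1 ranged from -0.26 to 0.04, -0.09 to 0.19, -0.37 to 0.23, -0.31 to 0.01 and -0.21 to 0.13 in the same herbicide comparisons. CYP2B6 ranged from -0.31 to 0.15 at 10 µg/L, -0.06 to 0.26 at 0.1 g/L, -0.18 to 0.23 for Roundup and -0.18 to 0.31 for Roundup against glyphosate, and CYP2C19 from -0.32 to 0.07 at 0.1 g/L.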
